A study of Mus musculus with 55 samples.

Results

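The choroid plexus epithelial genes Ttr, Folr1, Clic6, Kl, Aqp1, Otx2, Enpp2, Prlr, F5 and Cldn2 are 10 of the 45318 genes counted in the ventral dentate gyrus of male C57BL/6J mice. They were taken by name as genes of the epithelium that covers the choroid plexus. The mice were housed in standard housing (SH) or an enriched environment (EE). They were then left undefeated (control) or exposed to chronic social defeat stress (CSDS) by CD1 aggressors. Defeated mice were classed as resilient (RES) or susceptible (SUS) by their social interaction. The 6 groups were SH control (n = 10 mice), SH RES (n = 7), SH SUS (n = 10), EE control (n = 9), EE RES (n = 9) and EE SUS (n = 9). The labels name no transgene, deletion or age. Each mouse gave 1 RNA sample from a punch of the ventral dentate gyrus, and EE control 9 was sequenced in 2 libraries whose counts were summed.

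The choroid plexus is a fold of vascularised tissue inside the ventricles whose epithelial cells secrete the cerebrospinal fluid. Its cells carry ion and water transporters, seal the blood to fluid barrier with tight junctions and release carrier proteins into the fluid. The plexus of the lateral ventricle lies next to the hippocampus, but it is no part of the dentate gyrus.

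The 55 libraries held between 16760009 and 24426804 counts on genes (median 21590797). In these punches the markers of dentate granule cells, the labelled tissue, were present in every mouse, since the 10 genes of that list summed to between 713 and 1473 CPM. CPM is a gene's count scaled to a common library size with TMM factors, so that values of different mice can be compared. Reads were assigned to genes by strand, so that the opposite-strand transcripts that share exonic bases with Otx2 (Otx2os1), Enpp2 (Gm26684) and F5 (Gm16548) were counted apart. Otx2 and Prlr also share 168 and 203 exonic bases with the annotated same-strand genes Gm49154 and Gm21973, where reads could not be assigned to 1 gene.

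RefSeq (GRCm38.p6) promoters were examined for 6 of the 10 members, in 11 entries that run from 250 bases before a transcription start to 50 after it. No promoter of Ttr, Folr1, Clic6 or Enpp2 was among those examined. The entries were searched for the core that OTX factors bind (TAATCC, or GGATTA on the other strand) and for the TATA box (TATAAA, or TTTATA on the other strand). The OTX core was found in 1 of the 11 entries (9.09%) against 7.06% of all 32851 promoters of the set. The TATA box was found in 2 of the 11 (18.2%) against 13.6% of all. The member percentages hold for the 11 entries examined, and their difference from the whole set was not tested. The 2 sequences below are shown because they hold the OTX match and the TATA match nearest to a start. Each is the 250 bases before the start, 5′ to 3′ on the gene's own strand, with the matched letters in capitals.
Otx2, chr14:48665110-48665359, minus strand, OTX core at -211: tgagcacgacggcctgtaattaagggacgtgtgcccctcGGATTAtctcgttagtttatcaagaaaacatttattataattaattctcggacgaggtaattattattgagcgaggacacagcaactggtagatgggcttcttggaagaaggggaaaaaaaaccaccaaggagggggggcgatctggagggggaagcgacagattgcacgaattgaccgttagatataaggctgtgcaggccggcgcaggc
Cldn2, chrX:139800558-139800807, plus strand, TATA box at -35: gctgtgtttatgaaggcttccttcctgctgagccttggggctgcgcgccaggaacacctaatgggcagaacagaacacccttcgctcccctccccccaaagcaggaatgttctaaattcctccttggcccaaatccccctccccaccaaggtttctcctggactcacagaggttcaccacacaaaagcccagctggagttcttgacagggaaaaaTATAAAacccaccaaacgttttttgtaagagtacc
A match describes the letters in these windows and no more.

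Ttr, transthyretin, is the thyroxine and retinol carrier that the plexus epithelium secretes in large amounts. It was near or below the detection limit in most mice and very high in a few. Its median over the 54 mice was 0.305 CPM (6 counts), 3 mice had no count, and the highest mouse, SH control 3, reached 872 CPM (20432 counts). In 34 mice Ttr was under 1 CPM, in 9 it was between 1 and 10, in 5 between 10 and 100, and in 6 above 100. In this bulk tissue fewer cells of a type and less RNA per cell cannot be told apart.

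The 6 mice above 100 CPM were SH control 3 (872 CPM), EE SUS 3 (474 CPM), SH SUS 3 (315 CPM), EE control 9 (292 CPM), EE RES 3 (264 CPM) and SH SUS 7 (144 CPM). They came from 5 of the 6 groups, with 2 in SH SUS, 1 in each of SH control, EE control, EE RES and EE SUS, and 0 of 7 mice in SH RES. The next 5 mice were EE RES 8 (56.0 CPM), EE SUS 1 (45.5 CPM), SH control 5 (33.2 CPM), EE control 4 (31.5 CPM) and EE SUS 2 (12.6 CPM). The share of read pairs on no gene was 19.9% to 23.1% in the 6 mice and 19.9% to 28.8% in all 54, and its part in these levels was not tested.

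By group, Ttr ran from 0.0414 to 872 CPM in SH control (median 0.451), from 0.0453 to 1.94 in SH RES (median 0.145) and from 0 to 315 in SH SUS (median 0.639). It ran from 0.0927 to 292 CPM in EE control (median 0.695), from 0.0436 to 264 in EE RES (median 0.307) and from 0 to 474 in EE SUS (median 0.0979). The ranges of all 6 groups overlapped. The group with the lowest median, EE SUS, held the mouse with the second highest level.

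**Figure D1:**
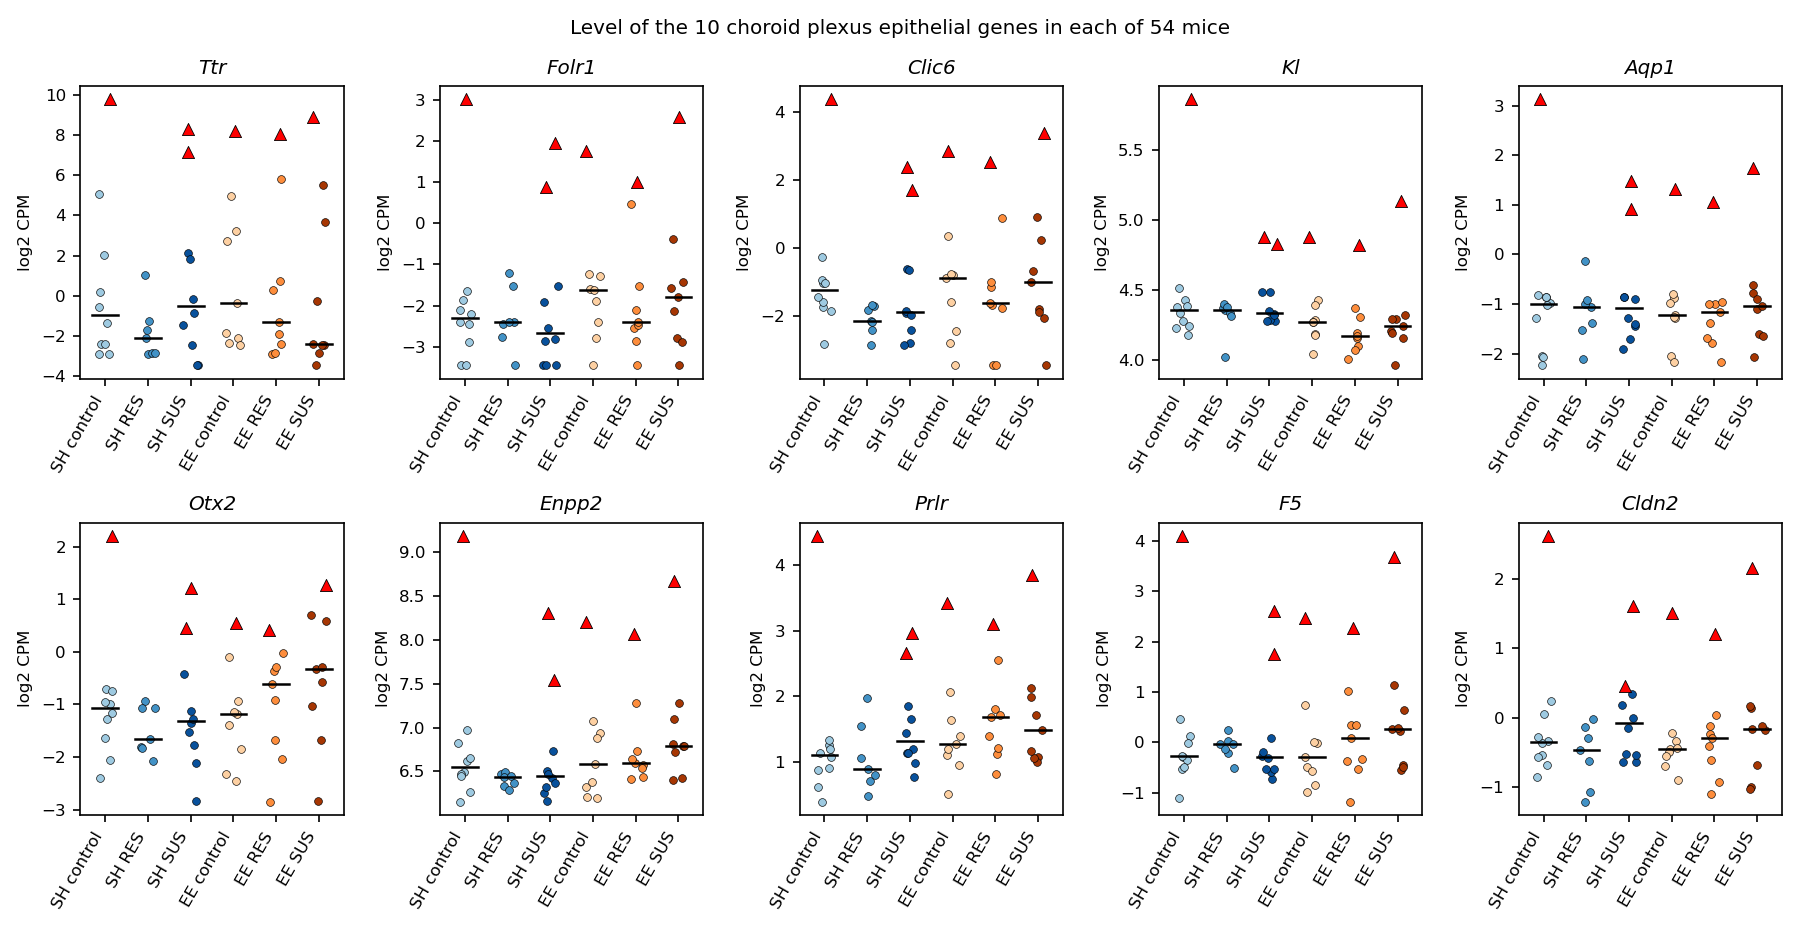
Level of each member as log2 CPM (y axis, prior count 2) in each of the 54 mice by group (x axis); points are mice, black bars are group medians, and red triangles are the 6 mice above 100 CPM of Ttr. The triangles stand at or near the top of their groups for every member, and SH RES has none.

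Enpp2, autotaxin, makes lysophosphatidic acid and is made by plexus epithelium and by myelinating oligodendrocytes. It was present in every mouse, with a median of 91.6 CPM and a lowest value of 71.1. The highest was 584 CPM in SH control 3, and the other 5 mice high for Ttr had 409, 316, 295, 268 and 187 CPM in the order given above. Per kilobase of exon, the level in SH control 3 was 735 CPM per kb for Ttr and 101 CPM per kb for Enpp2, against medians of 0.257 and 15.8 CPM per kb over all mice.

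Kl, klotho, is a coreceptor for FGF23 that plexus epithelium and some neurons express. It had a narrow range, from 15.5 to 58.2 CPM with a median of 19.6. The 6 mice high for Ttr had between 28.3 and 58.2 CPM of Kl, which were the 6 highest values of the 54.

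The transporters and channels were low in most mice. Folr1, the folate receptor that carries folate into the fluid, had a median of 0.112 CPM and was not counted in 9 mice, and it reached 8.02 CPM. Clic6, a chloride channel family protein, had a median of 0.228 CPM and reached 20.8. Aqp1, the water channel of the apical membrane, had a median of 0.390 CPM and reached 8.66. All 3 were highest in SH control 3.

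Otx2, a transcription factor needed to form the plexus, had a median of 0.377 CPM and reached 4.52. Cldn2, a claudin of the leaky tight junctions of this epithelium, had a median of 0.705 CPM and reached 6.06. Prlr, the prolactin receptor, had a median of 2.23 CPM and reached 21.7. F5, coagulation factor V, had a median of 0.801 CPM and reached 17.1. SH control 3 was the highest mouse for all 10 members.

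For 8 of the 9 members other than Ttr the 6 mice above 100 CPM of Ttr were also the 6 highest mice, and for Otx2 they held 4 of the 6 highest places. At 4 times a member's median or more, Ttr had 18 mice, Clic6 10, Folr1 8, Aqp1 and F5 6 each, Otx2 4, Prlr and Cldn2 3 each, Enpp2 2 and Kl 0. Enpp2 and Kl, which were high in all mice, had few mice at that multiple.

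The amount of each member above its median kept a narrow ratio to Ttr in these 6 mice, although Ttr itself ranged from 144 to 872 CPM. For each 100 CPM of Ttr above its median, Enpp2 was higher than its own median by between 56.5 and 71.4 CPM, which differs 1.26-fold from lowest to highest. The corresponding range was 1.58 to 2.40 CPM for Clic6, 1.73 to 2.88 for Prlr, 1.498 to 2.52 for F5 and 3.09 to 6.08 for Kl. It was 0.682 to 1.23 CPM for Folr1, 0.608 to 0.978 for Aqp1, 0.401 to 0.775 for Cldn2 and 0.328 to 0.630 for Otx2. No member's ratio differed more than 1.97-fold between the 6 mice. These values describe mice picked by their Ttr level and carry no test.

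**Figure D2:**
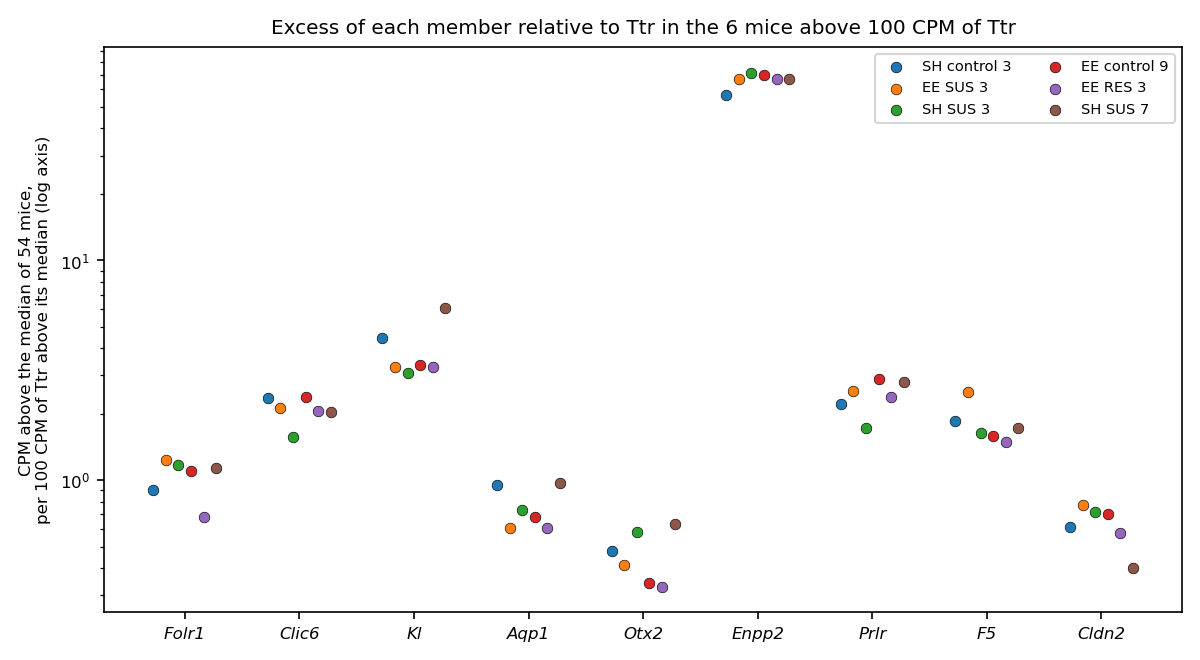
CPM of each member above its median over 54 mice, for each 100 CPM of Ttr above its median (y axis, log scale), for the 9 members other than Ttr (x axis); each point is 1 of the 6 mice above 100 CPM of Ttr. The points of a member lie close together, for Enpp2 between 56.5 and 71.4.

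Across the 54 mice, Ttr was correlated with each other member on the log2 CPM scale. Pearson's r was 0.90 with Clic6, 0.85 with Folr1, 0.83 with Prlr, 0.81 with Enpp2, 0.77 with F5, 0.76 with Cldn2, 0.71 with Otx2, 0.69 with Aqp1 and 0.63 with Kl. In a 2-sided permutation test with 100000 resamples each r had p = 1e-05, the smallest they can give, and an adjusted p of 1.75e-05 over the 21 relations tested. Folr1 passed the filter on low counts only with the 6 mice above 100 CPM of Ttr included, so its r and p are no separate support. Leaving out SH control 3 and EE SUS 3, the mice farthest from the median of Ttr, gave r of 0.87 for Clic6 and 0.49 for Kl, with the other 7 in between. The other mice above 100 CPM of Ttr stayed in, so this r does not give the relation without them. For Ttr under 1, 1 to 10, 10 to 100 and above 100 CPM, the median of Kl was 19.6, 19.2, 18.6 and 29.4 CPM. The median of Aqp1 was 0.331, 0.322, 0.453 and 2.55 CPM, and that of Clic6 was 0.181, 0.426, 1.18 and 6.45 CPM.

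By rank, which gives the few high mice less weight, Spearman's rho with Ttr was 0.72 for Clic6, 0.61 for Folr1, 0.60 for Prlr, 0.55 for Cldn2, 0.53 for Otx2, 0.51 for Enpp2, 0.44 for F5, 0.31 for Aqp1 and 0.24 for Kl. The permutation p adjusted over the 21 relations was 7e-05 for Clic6, Folr1 and Prlr, 0.00021 for Cldn2, 0.00027 for Otx2, 0.000289 for Enpp2, 0.00172 for F5 and 0.0316 for Aqp1. For Kl it was 0.104 (raw p = 0.0795), and the rank relation did not pass. The permutation p of rho before adjustment was 1e-05 for Clic6, Folr1 and Prlr and at most 0.0211 for Aqp1. The rho and p of Folr1 are no separate support either, since it passed the filter through the mice high for Ttr. As deviations from the means of the 6 groups, rho was 0.82 for Clic6 and 0.30 for Kl, and it was above the pooled value for all 9 members. All 45 pairs of members had rho above 0, with a median of 0.46, from 0.03 for Prlr with Kl to 0.73 for Enpp2 with Otx2.

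**Figure D3:**
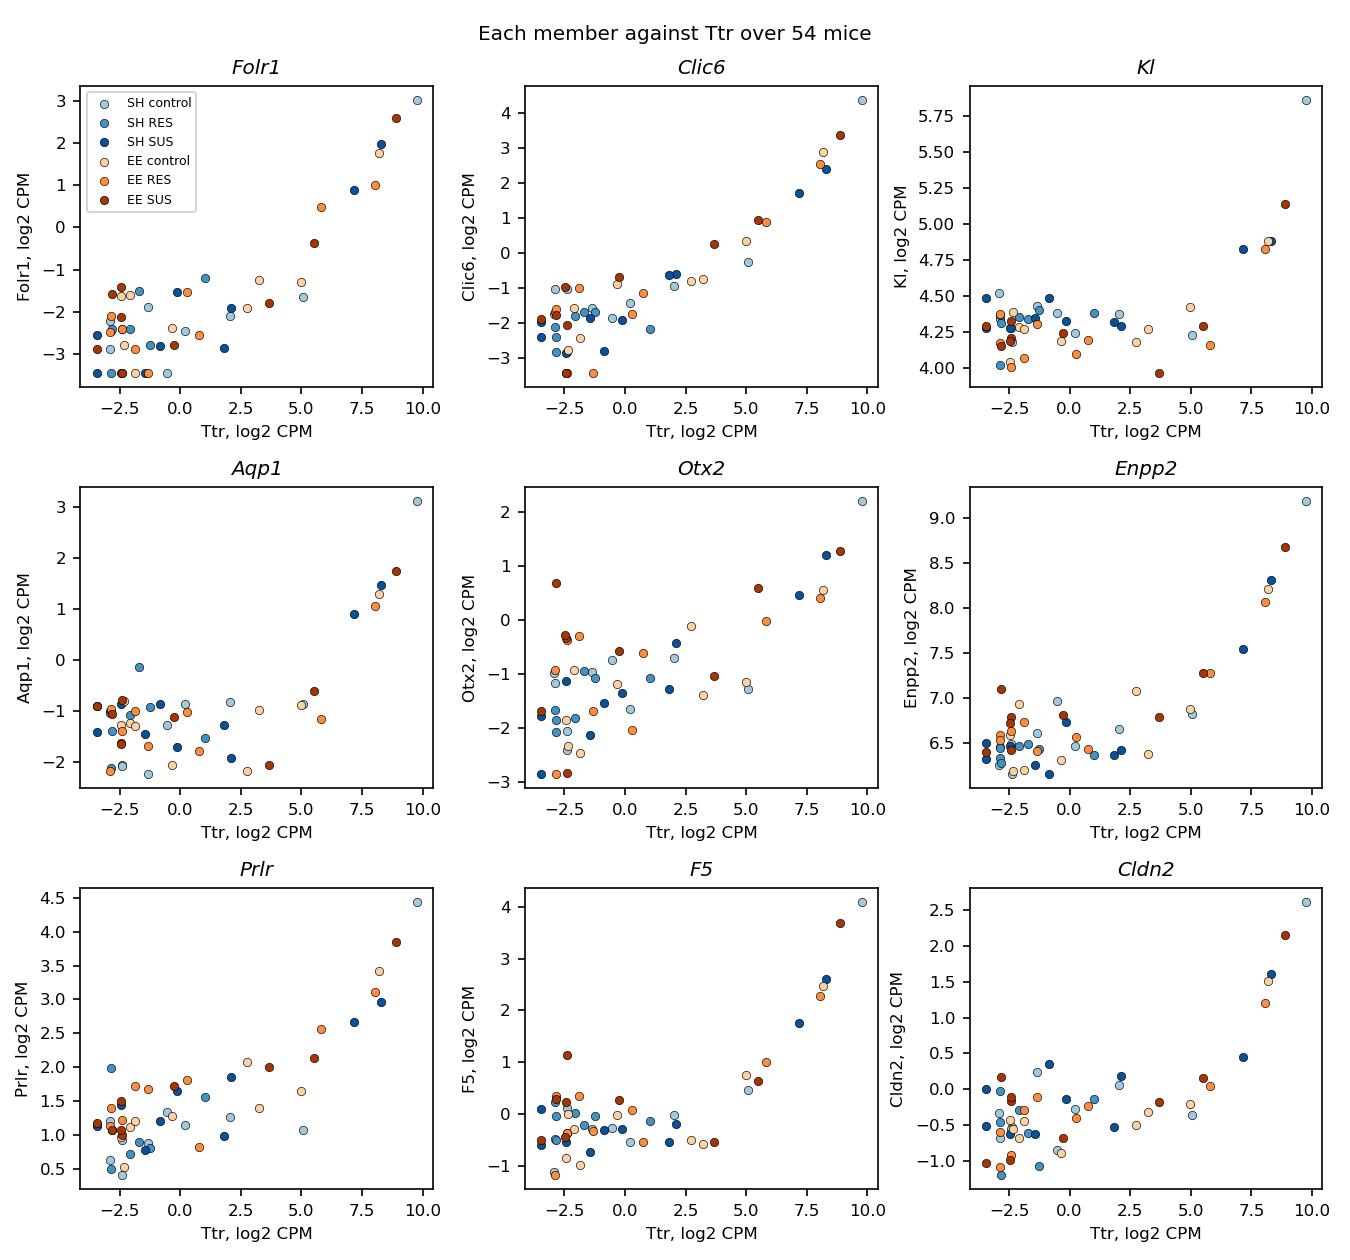
Each member (y axis, log2 CPM) against Ttr (x axis, log2 CPM) over 54 mice, colored by group. The points of Clic6 rise along the whole upper range of Ttr, with r of 0.90, while Enpp2 and Kl stay level until Ttr is high.

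Against all 18282 other genes tested, rho with Ttr placed Clic6 first, Folr1 49th, Prlr 66th, Cldn2 180th, Otx2 251st, Enpp2 328th, F5 732nd, Aqp1 2004th and Kl 3062nd. Folr1 was among the genes tested only through the mice high for Ttr. Apart from the members, the 10 genes most like Ttr over the 54 mice were Vit, Cfap206, Spink8, Plcxd3, Ppp2r1a, Gnas, Igfbp3, Plagl1, Htr2c and Nnat, with rho from 0.66 to 0.70. Among them Htr2c, the serotonin receptor that plexus epithelium carries at high density, was highest in SH control 3, at 30.9 CPM against a median of 9.78. Cfap206, a gene of motile cilia, reached 2.22 CPM in SH control 3 against a median of 0.361. Nnat was also highest in SH control 3. The rest were highest elsewhere: Vit, Spink8, Plcxd3, Igfbp3 and Plagl1 in EE control 9, and Ppp2r1a and Gnas in EE RES 8. Ppp2r1a and Gnas were abundant in all mice, with medians of 428 and 739 CPM.

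The genes most like each other member by rho were not the same ones. Among the genes closest to Enpp2 were the myelin genes Mag and Mbp, each with rho of 0.91, and its rho with the list of mature oligodendrocytes was 0.93 against 0.51 with Ttr. Otx2 had rho of 0.72 with the list of CA3 pyramidal cells and 0.69 with that of mature oligodendrocytes, against 0.53 with Ttr. Prlr had rho of -0.69 with dentate granule cells and 0.65 with ependymal cells, against 0.60 with Ttr. Kl was closest to Gria1 (rho 0.63), Actb and Sh3bp5, and Prlr to Plcxd3 (0.81), Sulf2 and Kit. Clic6 was closest to Col8a2 (0.74), Sulf1 and Htr2c, and Folr1 to Sulf1 (0.65), Ak7 and Dnah6. F5 was closest to Ace (0.70), Slc31a1 and Sgms2, and Aqp1 to Lbp (0.61), Slc2a12 and Pgf. Otx2 was closest to Cdr2 (0.78), Epb41l3 and Nrip3, and Cldn2 to Idh3a (0.58), Lpl and Gstp1. These are descriptions over 54 mice that share one tissue and one library protocol.

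Other genes listed for the same epithelium followed Ttr in part. Of 19 further choroid plexus genes, 17 were highest in SH control 3. The 6 mice above 100 CPM of Ttr were the 6 highest mice for 8 of the 19 and held 4 or fewer of these places for 9. Over the 11 that passed the filter on low counts, rho with Ttr ran from -0.18 for Car12, -0.09 for Wfikkn2 and 0.05 for Slc13a4 to 0.64 for Calml4. Kcnj13, a potassium channel of the apical membrane, had 9.81, 7.13, 3.86, 3.10, 2.66 and 1.84 CPM in those mice in order of Ttr, against a median of 0.194. The mean of these 11 genes had r = 0.79 and rho = 0.48 with Ttr (adjusted permutation p of rho 0.000653). Calml4 had a median of 0.0459 CPM and between 0.614 and 3.07 CPM in those 6 mice. Its place and that of Kcnj13 among the 11 may therefore rest on the mice high for Ttr, and this p is no separate support. Tmem72 had a median of 0 and 7.38 CPM in SH control 3. Kcnj13, Tmem72, Wfikkn2 and Calml4 were chosen after their values were seen. The exceptions to SH control 3 were Car12, highest in EE control 8, and Cox8b, highest in EE SUS 3, and the more abundant genes of the list, Car12 and Igfbp2, had 1 and 3 of the 6 mice among their 6 highest. Wfikkn2 and Cox8b had 2, and Slc13a4, Rdh5 and Msx1 had 3.

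Of the markers of neighboring tissue, the list of ependymal cells, the ciliated lining of the ventricles, followed Ttr (r = 0.85, rho = 0.60, adjusted permutation p of rho 0.00021). Both values use the 6 of its 10 genes that passed the filter on low counts. Whether these genes pass without the mice high for Ttr was not tested. All 10 genes of the list summed to a median of 8.16 CPM over all mice and to between 6.30 and 8.63 CPM in SH RES. They reached 25.9 CPM in SH control 3, 19.1 in EE control 9 and 17.2 in EE SUS 3. The lists of CA3 pyramidal cells (rho = 0.48, adjusted permutation p = 0.000777), mature oligodendrocytes (rho = 0.38, adjusted permutation p = 0.00861) and CA1 pyramidal cells (rho = 0.33, adjusted permutation p = 0.0226) were also higher where Ttr was higher. Dentate granule cell markers were lower (rho = -0.52, adjusted permutation p = 0.00027), and summed to 869 CPM in SH control 3 against a median of 1159 over all mice. For meningeal and stromal fibroblasts rho was -0.02, for thalamus 0.07, for endothelial cells -0.02, for blood 0.04, for astrocytes 0.00 and for microglia -0.25, and none of these 6 passed (adjusted permutation p from 0.0998 to 0.977). Pearson's r was 0.57 for CA3 pyramidal cells, 0.47 for mature oligodendrocytes, 0.34 for CA1 pyramidal cells and -0.59 for dentate granule cells, with adjusted permutation p of 3.23e-05, 0.00051, 0.0151 and 1.75e-05. Leaving out SH control 3 and EE SUS 3 gave r of 0.81 for ependymal cells, 0.58 for CA3, 0.49 for oligodendrocytes, 0.27 for CA1 and -0.58 for dentate granule cells. What these lists contribute to the members' levels was not tested.

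**Figure D4:**
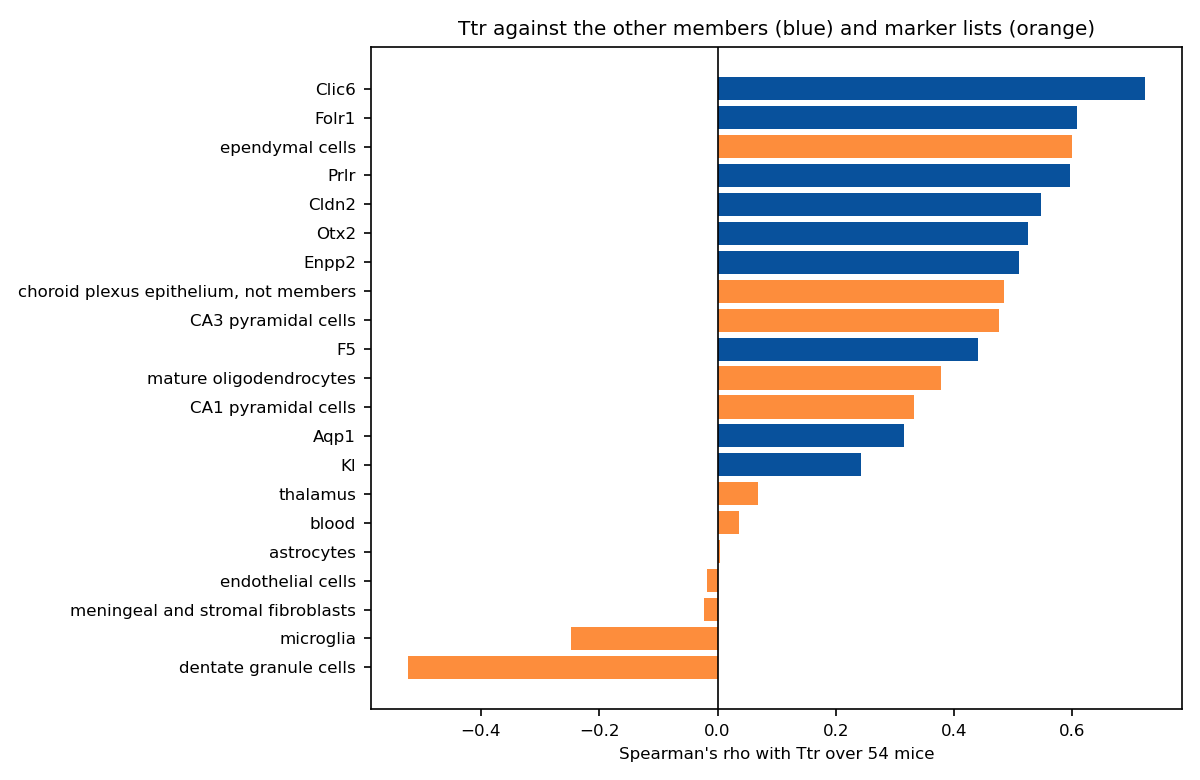
Spearman's rho of Ttr over 54 mice (x axis) with each other member (blue bars) and with the mean log2 CPM of each of 12 marker lists (orange bars). Clic6 has the longest bar (0.72), ependymal cells stand among the members (0.60), and dentate granule cells are on the negative side (-0.52).

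The design asks whether the members differ between SUS and RES mice, between defeated and control mice, and between EE and SH. No member passed an adjusted p of 0.05 in any of the 10 comparisons by edgeR's quasi-likelihood test, and none did by limma or DESeq2. At an unadjusted p under 0.05, limma counted 0 members in each comparison and DESeq2 from 0 to 4. Their counts over all genes at that level are not given, so these counts have no background. By edgeR there were from 0 to 7 members, against from 508 to 2934 of all 18283 genes, depending on the comparison. The median level of all genes moved by less than 0.01 in each.

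For SUS against RES, 0 of 10 members were called in SH and 0 of 10 in EE, where the percentage of all 18283 genes called was 0 in both. In SH all 10 members had higher estimates in SUS, with a median log2 fold change of 0.81. At an unadjusted p under 0.05 there was 1 member, against 893 of all 18283 genes. That member was Ttr, with a log2 fold change of 6.80 (SE 2.62, edgeR adjusted p = 0.934). Ttr had a mean of 46.8 ± 104 CPM (SD, n = 10) in SH SUS and of 0.396 ± 0.689 CPM (SD, n = 7) in SH RES, while the medians were 0.639 and 0.145 CPM. Without SH SUS 3 the median was 0.39 and Ttr 5.29, and without SH RES 7 Ttr was 8.37. Without the 6 mice above 100 CPM of Ttr, Ttr was 1.49, and the median of the 9 members then tested was 0.04. In EE all 10 members had higher edgeR estimates in SUS, with a median of 0.60 and 0 members under an unadjusted p of 0.05. By DESeq2 5 of 10 were higher (median 0.04) and by limma 9 of 10 (median 0.25). Without the 6 mice 7 of 9 were higher by edgeR (median 0.14). The members are correlated over the same mice, so their directions are not separate results in either housing. Without EE SUS 3 the edgeR median was -0.36 and Ttr was -2.35, against 0.73 (SE 1.36) with it. At the study's criterion of a limma p under 0.05 and a fold change over 1.3, 0 of 10 members were called in SH, where 1.14% of all genes were, and 0 of 10 in EE, where 1.1% were.

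For the 4 comparisons of defeated with control mice, 0 of 10 members were called in each. The percentage of all genes called was 0.0328 in SH SUS against SH control, and 0 in SH RES against SH control and in both EE comparisons. In SH RES against SH control all 10 members had lower estimates, with a median log2 fold change of -1.49. At an unadjusted p under 0.05 there were 7 members, against 641 of all 18283 genes. All 10 members were highest in SH control 3, so the 7 are not separate results. Ttr had -7.77 (SE 2.58) and Clic6 -4.00 (SE 1.40), both with an edgeR adjusted p of 0.9999. Without SH control 3 the median was -0.08 and Ttr was -3.41, and without SH RES 7 Ttr was -9.34. In SH SUS against SH control the median was -0.52 and 0 members had an unadjusted p under 0.05, and without SH control 3 the median was 0.86. In EE SUS against EE control the median was 0.28 and in EE RES against EE control -0.12, each with 0 members under an unadjusted p of 0.05. Without EE control 9 these 2 medians were 1.25 and 0.65. These comparisons share control mice within each housing.

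For EE against SH, 0 of 10 members were called in controls, RES and SUS mice, where the percentage of all genes called was 0.00547, 0.273 and 0.00547. In RES mice 9 of 10 members had higher estimates in EE, with a median log2 fold change of 0.72. Ttr had 6.42 (SE 2.67, edgeR adjusted p = 0.211). It was the 1 member under an unadjusted p of 0.05, against 2934 of all 18283 genes. DESeq2 gave Ttr an adjusted p of 0.0763, with 6 members given none. Without EE RES 3 the median was 0.38 and Ttr 4.15, and without SH RES 7 Ttr was 7.99. Without the 6 mice above 100 CPM of Ttr, 4 of the 9 members then tested had an unadjusted p under 0.05, with a median of 0.27 and Ttr at 4.15, and the smallest edgeR adjusted p was 0.232. In control mice the median was -0.54 and in SUS mice 0.33, each with 0 members under an unadjusted p of 0.05. Without the 6 mice, 4 of the 9 members had an unadjusted p under 0.05 in SUS mice. The median was then 0.40 and Ttr 2.60, and the smallest edgeR adjusted p was 0.203. The share of all genes at that unadjusted p without the 6 mice is not given, so neither count of 4 has a background. Without SH control 3 the median in control mice was 0.90, without EE control 9 it was -1.44, and without EE SUS 3 the median in SUS mice was -0.49 and without SH SUS 3 it was 0.89. The interaction of SUS against RES with housing called 0 members and 0 percent of all genes, with 0 members under an unadjusted p of 0.05.

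**Figure D5:**
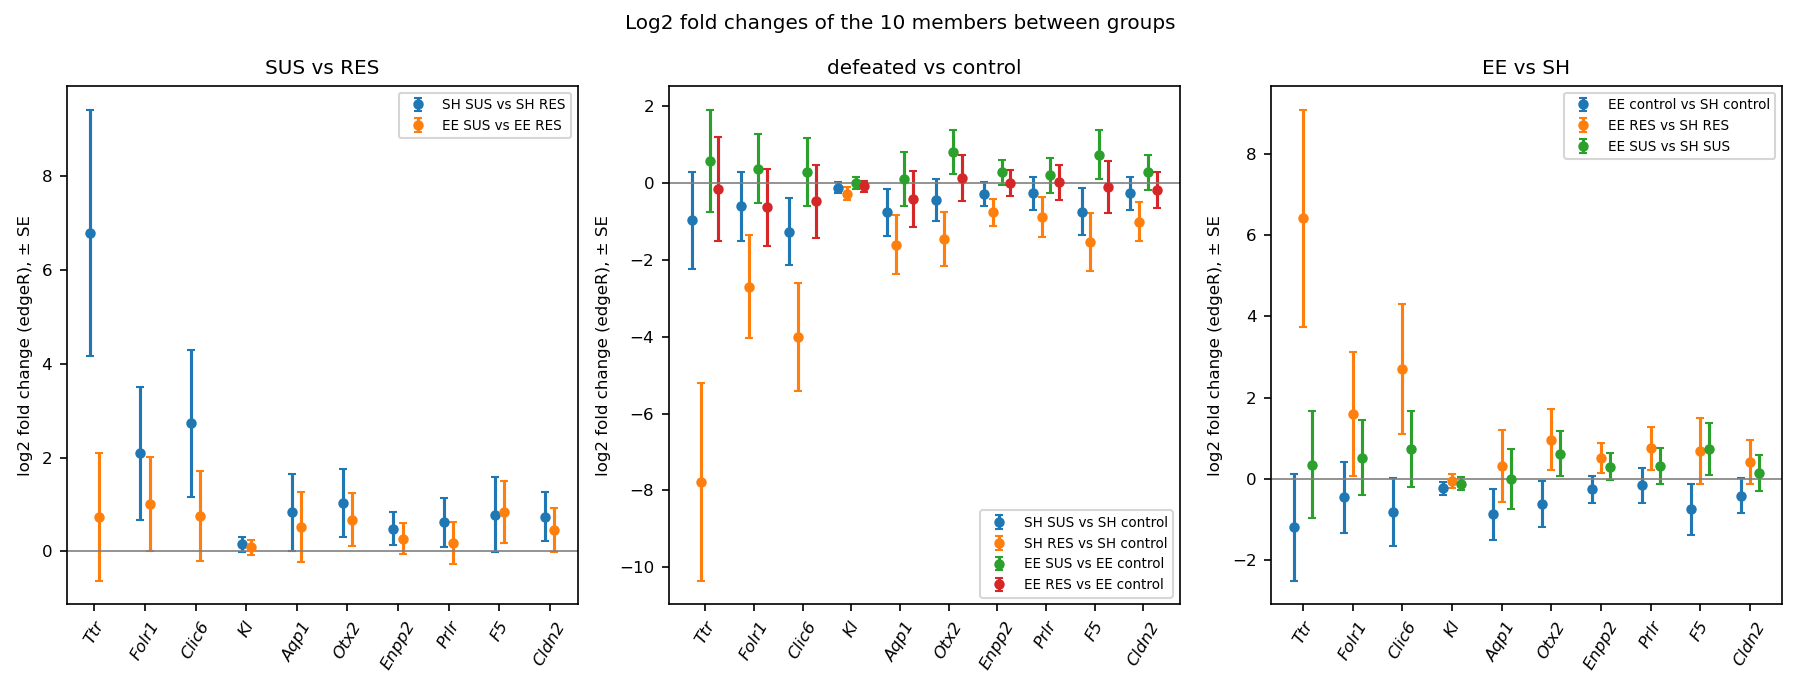
Log2 fold change of each member (y axis, edgeR, bars are ± SE) in the 9 comparisons between groups, by member (x axis), with defeated mice against control in the middle panel. The widest bars belong to Ttr, and its estimates of 6.80, -7.77 and 6.42 are in the 3 comparisons that hold SH RES, the group with no mouse above 100 CPM.

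Among the 19 further choroid plexus genes, 11 passed the filter on low counts and 0 were called in any of the 10 comparisons. Across the 12 marker lists the calls were the 5 blood genes, all higher in SH SUS than in SH control. Folr1 did not pass the filter once the 6 mice above 100 CPM of Ttr were left out, so its place among the 10 members tested rested on them.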

How the data were processed

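Ventral dentate gyrus RNA of 54 mice was measured by stranded total RNA-seq. The deposited files hold raw gene counts, which the authors made by aligning reads with STAR to mm10 (GRCm38) with Ensembl genes. The methods name featureCounts, but the layout is that of STAR gene counts. The count column for reverse-stranded libraries was used, and the other 2 count columns served for a strand check and 1 alternative. The rows for unassigned pairs (19.9% to 28.8% on no gene) stayed out of library sizes. The 2 runs of EE control 9 had r = 0.9991 on log2 CPM, against at most 0.9981 with another mouse, and were summed to 1 mouse. Symbols came from GENCODE M21 (44585 of 45318 identifiers matched).

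Levels are CPM with TMM factors. Log2 CPM used a prior count of 2. Genes were filtered with filterByExpr, leaving 18283, and all 10 members passed. One edgeR 4.0.16 quasi-likelihood model covered all 6 groups in R 4.3.3, with Benjamini-Hochberg adjustment over all genes tested. The alternatives were limma 3.58.1, DESeq2 1.42.0, unstranded counts, size factors of DESeq2 with edgeR, a stricter filter (7 mice at 1 CPM or more) or none, the replicate block, the other choroid plexus genes as a covariate, each mouse left out and the 6 mice high for Ttr left out. On simulated counts for SH SUS against SH RES, 200 of 18159 genes were changed by a log2 value of 1. Of the 200, 94% were recovered, and 5 other genes were called. The 94% is for the 200 genes together, and recovery of the members on their own was not tested. In the real data for that comparison the edgeR SE was 2.62 for Ttr, 1.57 for Clic6 and 1.42 for Folr1. It was between 0.520 and 0.817 for Aqp1, Otx2, Prlr, F5 and Cldn2, 0.357 for Enpp2 and 0.162 for Kl. Correlations over mice used 2-sided permutation tests. A list's level is the mean log2 CPM of its tested genes.

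The genes named are all members, the 3 genes most like each member by rho (10 for Ttr), up to 4 genes of a list by mean CPM and any called gene, except 1 gene that is not reported here. The members and lists were chosen with earlier results of these data known. Mice of a group are labelled only by number, so p-values measure the spread between these mice. Replicate numbers were not taken to pair the mice (the check is given with the alternatives). Ecrg4 and Nov matched no gene. The total counts leave counting error of a few reads on the members near their medians.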

Additional observations from a re-analysis of the deposited data

Results flagged for a closer look

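In 27 of 60 pairs of a member and a group, 1 mouse lay farther from the others on log2 CPM than Dixon's 95% limit for the group size, and in 26 of them it was the highest mouse. The limit assumes normal values, and the 60 pairs use the same mice again for correlated members. The count of 27 therefore cannot be set against a rate expected by chance. SH RES 7 was the highest of its group for Ttr (1.94 CPM, next 0.33). SH control 3 was the highest of its group for Folr1 (8.02 CPM, next 0.229), Clic6 (20.8 CPM, next 0.734), Kl (58.2 CPM, next 22.8), Aqp1 (8.66 CPM, next 0.473), Otx2 (4.52 CPM, next 0.521), Enpp2 (584 CPM, next 125), Prlr (21.7 CPM, next 2.44), F5 (17.1 CPM, next 1.28), Cldn2 (6.06 CPM, next 1.09). EE control 9 was the highest of its group for Folr1 (3.32 CPM, next 0.332), Kl (29.4 CPM, next 21.4), Aqp1 (2.39 CPM, next 0.483), Enpp2 (295 CPM, next 135), F5 (5.44 CPM, next 1.59), Cldn2 (2.76 CPM, next 0.771). SH RES 5 was the lowest of its group for Kl (16.1 CPM, next 19.8). EE RES 3 was the highest of its group for Kl (28.3 CPM, next 20.6), Aqp1 (1.996 CPM, next 0.425), Cldn2 (2.22 CPM, next 0.939). EE SUS 3 was the highest of its group for Kl (35.1 CPM, next 19.9), Aqp1 (3.27 CPM, next 0.565), Enpp2 (409 CPM, next 155), Prlr (14.3 CPM, next 4.30), F5 (12.7 CPM, next 2.10), Cldn2 (4.37 CPM, next 1.03). SH SUS 3 was the highest of its group for Cldn2 (2.97 CPM, next 1.28). SH control 3 and EE SUS 3 are also the mice with the highest Ttr, while Ttr itself passed the limit in SH RES and in no other group. The cause was not tested.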

How the results depend on the processing

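No member was called in any of the 10 comparisons under any of 63 alternatives (630 values), 54 of which leave out 1 mouse, and the count at the study's criterion stayed at 0 in both housings. The smallest adjusted p of a member over these was 0.0763, for Ttr by DESeq2 in EE RES against SH RES. With the replicate number as a replicate block, 0 members were called in each comparison, and the smallest adjusted p of a member in EE RES against SH RES was 0.241. The 126 pairs of same-numbered mice had a median correlation of 0.03 between their deviations from group means (-0.26 to 0.44, 32 over 0.1). The 1086 pairs of other mice from different groups had a median of -0.004 (-0.35 to 0.49, 175 over 0.1). The numbers were not taken to pair the mice, and what same-numbered mice share was not tested. The block moved the genes called in EE RES against SH RES from 50 to 228, and leaving out 1 mouse moved them between 0 and 292. The sign of the Ttr estimate, which no test called, turned with DESeq2 to -0.0022 in EE SUS against EE RES, 1.91 in SH SUS against SH control, 0.28 in EE RES against EE control, 0.45 in EE control against SH control, -1.19 in EE SUS against SH SUS, and with limma to -0.16 in EE SUS against EE RES, 0.011 in SH SUS against SH control, -1.67 in EE SUS against EE control, 1.40 in EE control against SH control, -0.28 in EE SUS against SH SUS, and with the other choroid plexus genes as a covariate to -0.34 in EE SUS against EE RES, 0.27 in SH SUS against SH control, -0.21 in EE SUS against EE control, 0.12 in EE RES against EE control, 0.60 in EE control against SH control, and without the 6 mice above 100 CPM to -0.054 in EE SUS against EE RES, 0.27 in EE RES against EE control, 0.47 in EE control against SH control, and with the replicate block to 0.12 in SH SUS against SH control, -1.38 in EE SUS against EE control, 1.498 in EE control against SH control. Leaving out 1 mouse at a time gave Ttr -2.35 to 2.999 in EE SUS against EE RES, -2.48 to 3.39 in SH SUS against SH control, -2.50 to 3.26 in EE SUS against EE control, -2.42 to 2.53 in EE RES against EE control, -3.89 to 3.16 in EE control against SH control, -2.73 to 1.86 in EE SUS against SH SUS. By edgeR, limma and DESeq2, Ttr was 6.80, 2.52 and 5.52 in SH SUS against SH RES. In the same order it was -7.77, -2.51 and -3.61 in SH RES against SH control. It was 6.42, 2.41 and 4.33 in EE RES against SH RES. The alternative without the 6 mice was chosen after seeing the data. DESeq2 ran with its defaults, which replace counts flagged as outliers in groups of this size. Its estimates may therefore not rest on the same counts in the mice high for Ttr. All relations of Ttr that passed kept their sign under other scalings. At 8 times the median Ttr had 16 mice and Clic6 6. Members with median counts under 10, Ttr, Folr1, Clic6, Aqp1 and Otx2, differ between most mice by a few reads.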

Other observations

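Of the 6 mice above 100 CPM of Ttr, 4 carry replicate number 3 in their group (SH control 3, SH SUS 3, EE RES 3 and EE SUS 3). The other 2 of the 6 mice with that number had low levels, SH RES 3 with 0.215 CPM and EE control 3 with 0.695 CPM. The labels do not say what a replicate number stands for.

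The list of blood genes, which did not follow Ttr over the mice, was highest in EE SUS 3 (441 CPM summed), a mouse with the second highest Ttr, and low in SH control 3 (87.6 CPM summed), the mouse with the highest. The thalamus list was lowest of all 54 mice in SH control 3 (152 CPM summed), and the list of CA1 pyramidal cells was highest there (302 CPM summed against a median of 130).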
